A study of Mus musculus with 2 samples.

Results

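The 29 genes described here carry out the response to interferon and the presentation of antigen. They were taken by symbol from the 31057 features of a single-cell RNA sequencing study of the mouse adrenal cortex, and each of the 29 symbols had a feature. They comprise the class I chains H2-D1, H2-K1, H2-T23 and B2m, the class II genes H2-Aa, H2-Ab1, H2-Eb1 and Cd74, the peptide loading genes Tap1, Tap2 and Tapbp, and the immunoproteasome subunits Psmb8 and Psmb9. The regulators are Nlrc5, Stat2, Irf1, Irf7 and Irf9. The antiviral effectors are Isg15, Ifit1, Ifit2, Ifit3, Ifi27, Bst2, Ly6e, Ifitm3, Rsad2 and Oasl2, and the chemokine is Cxcl10. Of the 29, 11 lie on chromosome 17, where the mouse major histocompatibility complex is found.

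The cells were obtained by dissociating adrenals of 15-week-old males, genotype WT, SF1-Cre ; Rosa mTmG, with 26 adrenals in the study. SF1-Cre is active in the steroid-producing lineage, and the Rosa mTmG reporter replaces membrane tdTomato with membrane GFP where Cre has acted. The single group had 2 libraries with the same labels, called library 1 and library 2, and neither an untreated control nor an interferon treatment nor another genotype. Glands were pooled, the sources used here do not say which animals went into which library, and the sort kept live cells by a DNA dye with no gate on GFP named, so comparisons lay between kinds of cells within a library.

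Interferons bind receptors whose kinases activate STAT proteins. STAT2 and IRF9 are parts of a complex that binds the interferon-stimulated response element, and IRF1 and IRF7 bind related sequences. Class I molecules show peptides from inside the cell to cytotoxic T cells: the immunoproteasome cuts the peptides, the TAP transporter carries them into the endoplasmic reticulum, tapasin (Tapbp) helps to load them, and NLRC5 activates the genes. Nearly all nucleated cells carry class I, whereas class II, activated by CIITA, is largely kept to B cells, macrophages and dendritic cells.

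The promoter matches of the 4 class I chains, of the effectors Isg15, Ifit1 and Ifit3 and of Cxcl10 are shown first, because they hold the interferon-stimulated response element, a shorter form of it or an NF-kB element. They were chosen with matches and levels known, and Stat2, Bst2 and Rsad2 also held a match. Promoters (250 bases before the gene's start, RefSeq, build GRCm38.p6, both strands searched) were found for 23 of the 29. Capitals mark matches to GAAANNGAA or TTCNNTTTC for the core of the interferon-stimulated response element, to TTTCNCTTC (or GAAGNGAAA) for a shorter form, and to GGGATTCCC (or GGGAATCCC) for an NF-kB element.
H2-K1, chr17:34000429-34000457, minus strand: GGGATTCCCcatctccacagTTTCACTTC
H2-D1, chr17:35262924-35262952, plus strand: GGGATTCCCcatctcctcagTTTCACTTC
H2-T23, chr17:36032806-36032834, minus strand: tcctactgctTTCTCTTTCataaagacac
B2m, chr2:122147538-122147566, plus strand: ataagaacatGAAACTGAAaatgggaaag
Isg15, chr4:156200866-156200906, minus strand: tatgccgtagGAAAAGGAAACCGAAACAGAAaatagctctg
Ifit1, chr19:34640770-34640823, plus strand: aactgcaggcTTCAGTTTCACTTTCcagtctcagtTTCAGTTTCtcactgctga
Ifit3, chr19:34583364-34583445, plus strand: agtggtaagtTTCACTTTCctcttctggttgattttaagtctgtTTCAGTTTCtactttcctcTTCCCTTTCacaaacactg
Cxcl10, chr5:92349084-92349112, minus strand: tcacgctttgGAAAGTGAAacttacctca

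The H2-K1 and H2-D1 windows were identical at 28 of 29 bases. The NF-kB element was in these genes and Irf1 among the members and in 95 of 27025 promoters (0.352%). The shorter form was in H2-K1 and H2-D1 and in 2.34% of all promoters. The core of the response element was in 9 of the 23 members (H2-T23, B2m, Stat2, Isg15, Ifit1, Ifit3, Bst2, Rsad2 and Cxcl10), against 8.18% of all promoters. The gamma-activated site TTCNNNGAA was in Psmb8, Irf1, Ifit2 and Bst2 and in 8.13% of promoters. Such matches describe letters, not binding, and overlapping matches in Isg15 and Ifit1 run together. The H2-D1 and H2-T23 windows lie inside the gene as annotated in GENCODE vM21, near its start.

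Library 1 held 5040 barcodes and 92905273 UMIs (unique molecular identifiers, 1 per captured RNA molecule), against 28023733 UMIs over 2288 barcodes in library 2. The filters kept 4689 and 1970 cells, whose median depths were 18198 and 14822 UMIs, and 4 barcodes occurred in both libraries. Levels below are in CPM, the UMIs of a gene in all cells of a group per 1000000 UMIs of those cells, given for library 1 and then library 2.

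Cortical cells had at least 1000 CPM of Star, which brings cholesterol into mitochondria, and numbered 4204 and 1710. They were divided by the genes that mark the zones. Cyp11b2 encodes aldosterone synthase of the outer zona glomerulosa, and Cyp11b1 encodes the enzyme that completes corticosterone in the zona fasciculata. Aldh1a1 encodes a retinaldehyde dehydrogenase. Aldh1a1-high cells (at least 500 CPM, whatever the other genes) numbered 35 and 30. Among the rest, Cyp11b2-high cells (at least 500 CPM, with Cyp11b1 under 1000) numbered 81 and 88, and Cyp11b1-high cells (at least 1000 CPM, with Cyp11b2 under 500) 472 and 336. Intermediate cells (Cyp11b1 from 200 to under 1000) numbered 631 and 210, and cells low in both 2984 and 1044. Cells that expressed both at the high limits numbered 1 and 2 and were not compared. Leukocytes, cells with a UMI of Ptprc (CD45) and under 1000 CPM of Star, numbered 75 and 65, or 1.60% and 3.30% of kept cells.

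Some marker levels of these groups follow. The listed zona glomerulosa markers beside Cyp11b2 were Dab2, Vsnl1 and Wnt4, of which Dab2 alone is reported here. It stood at 2015 and 3008 CPM in Cyp11b2-high cells, against 291 and 91.6 in Aldh1a1-high cells. The 4 zona fasciculata markers summed to 7699 and 11400 CPM in Aldh1a1-high cells, against 3699 and 5344 in Cyp11b1-high and 2372 and 2374 in Cyp11b2-high cells. That sum includes Cyp11b1, so the gap between Cyp11b1-high and Cyp11b2-high cells follows in part from the limits that defined them. Of the leukocytes, 34 and 27 carried at least 2 myeloid markers, 17 and 13 B cell markers and 11 and 14 T or NK cell markers. The remaining 13 and 11 carried fewer than 2 markers of each kind. The 5 cortex markers of the leukocytes, among them Star, which the leukocyte limit caps, summed to 197 and 132 CPM. Yet eGFP stood at 2575 and 3040 CPM in leukocytes against 2881 and 3092 in cortical cells. Cre had no UMI in leukocytes. The source of that eGFP RNA was not tested.

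In cortical cells, H2-K1, H2-D1 and B2m were higher in Cyp11b1-high cells than in the 3 groups with less Cyp11b1, and all 4 class I chains were highest in Aldh1a1-high cells. The highest level fell in the same group for many members: 11 of the 27 that passed the low-count filter had their highest cortical level in Aldh1a1-high cells in both libraries, against 19.9% of all 11342 genes tested. These were H2-D1, H2-K1, H2-T23, B2m, Tap1, Tap2, Tapbp, Psmb9, Irf7, Isg15 and Ifit3. No member peaked in Cyp11b2-high cells in both libraries, where 12.3% of all genes did.

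H2-K1 encodes the heavy chain of H-2K. Its level was 246 and 254 CPM in Cyp11b2-high cells, 217 and 226 in cells low in both, 249 and 253 in intermediate cells, 324 and 339 in Cyp11b1-high cells and 613 and 663 in Aldh1a1-high cells. The libraries differed by less than the steps to the Cyp11b1-high and Aldh1a1-high cells, while Cyp11b2-high and intermediate cells overlapped. In leukocytes H2-K1 reached 1522 and 2053 CPM. Aldh1a1-high cells thus held 2.49-fold and 2.61-fold the level of Cyp11b2-high cells, and leukocytes 2.48-fold and 3.10-fold that of Aldh1a1-high cells.

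H2-D1, the heavy chain of H-2D, was likewise higher in Cyp11b1-high and highest in Aldh1a1-high cells. It stood at 145 and 141 CPM in Cyp11b2-high cells, 132 and 135 in cells low in both, 152 and 131 in intermediate, 216 and 202 in Cyp11b1-high and 409.7 and 453 in Aldh1a1-high cells. The 3 lower groups were close together and overlapped in part, and the 2 higher groups overlapped with no other. Leukocytes held 2486 and 2915 CPM. Of 50-base stretches near the 3′ ends of H2-D1 and H2-K1, 10.1% and 10.2% also occur in other genes. Each was the gene that shared most with the other, so reads may be shared.

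B2m encodes beta-2 microglobulin, the light chain that every class I heavy chain needs. It stood at 115 and 69.5 CPM in Cyp11b2-high, 131 and 87.7 in cells low in both, 156 and 98.0 in intermediate, 265 and 183 in Cyp11b1-high and 538 and 542.5 in Aldh1a1-high cells. Library 1 was higher than library 2 in the first 4 groups, and the order of the groups was the same in both. Aldh1a1-high cells held 4.66-fold and 7.80-fold the level of Cyp11b2-high cells. H2-T23, which encodes the nonclassical molecule Qa-1, was 23.2 and 32.0 CPM in Cyp11b2-high, 37.8 and 27.9 in Cyp11b1-high and 75.3 and 86.8 in Aldh1a1-high cells. The first 2 of these groups overlapped, and only Aldh1a1-high cells stood apart. Near the 3′ end of H2-T23, 36.2% of stretches are also shared with other genes, Rab33b sharing the most.

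**Figure D1:**
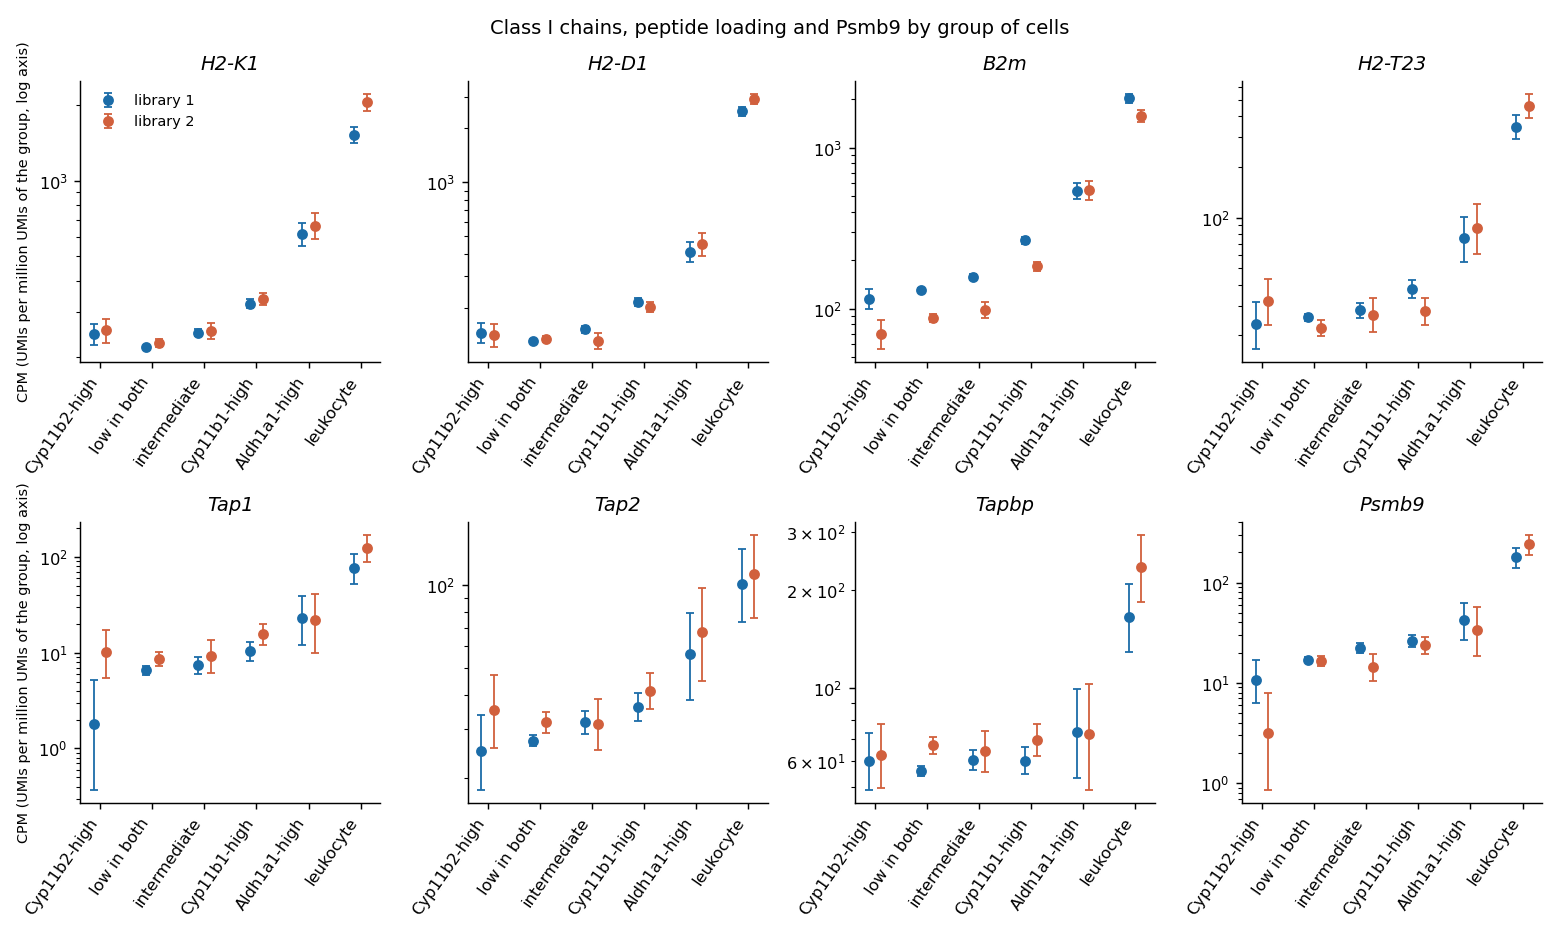
CPM on a log axis of 8 class I pathway genes in 5 cortical groups and in leukocytes, 1 point per library, with exact Poisson 95% intervals that cover counting error only. H2-K1, H2-D1, B2m and H2-T23 are higher in Aldh1a1-high than in every other cortical group in both libraries, and leukocytes are higher still.

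The share of cells with at least 1 UMI was high for class I in the whole cortex. H2-K1 was detected in 93.3% and 88.6% of cortical cells, at median depths of 18647 and 15410 UMIs, and in 93.3% and 89.2% of leukocytes, at 5017 and 4480. No cell type here should lack class I, so there is no background share to set beside these. Thinned to 5000 UMIs per cell (614 shallower cells left out), H2-K1 was detected in 58.7% and 77.4% of Cyp11b2-high, 67.9% and 73.7% of Cyp11b1-high and 92.9% and 96.2% of Aldh1a1-high cells. B2m after thinning was in 33.3% and 24.2%, 65.6% and 51.9%, and 75.0% and 96.2% of these cells, against 74.1% and 48.9%, 89.2% and 69.6%, and 97.1% and 93.3% before it. At equal depth, more Aldh1a1-high cells than Cyp11b2-high cells thus held both transcripts in each library.

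The first comparison asked how cells with the corticosterone enzyme differ from those with aldosterone synthase. UMIs were summed per group and library and fitted with edgeR's quasi-likelihood test with a library term, over all genes, with Benjamini-Hochberg adjustment and a threshold of 0.05. In Cyp11b1-high against Cyp11b2-high cells, 11 of 27 members tested were higher, 0 were lower (0 also at an unadjusted p under 0.05, and by DESeq2) and 16 did not pass, where 10.7% of all genes tested were higher and 12.7% lower. Nlrc5 and Ifit2 had too few UMIs to be tested. The median log2 difference of the members was 0.60, or 0.54 with Ifit3 at its bound and Cxcl10 left out, against 0.02 for all genes.

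By role, 3 of 4 class I chains, 1 of 3 loading genes, 1 of 2 immunoproteasome subunits, 3 of 4 regulators tested and 3 of 9 effectors tested were higher, and 0 of the 4 class II genes passed, by DESeq2 as by edgeR and at an unadjusted p under 0.05. The class II result depended on the setting: all 4 passed as higher with halved group limits. Cd74 also passed as higher without cells holding Ptprc, without the low-count filter and after thinning to 5000 UMIs. B2m was higher by 1.21 ± 0.14 (log2 ± SE, adjusted p = 2.91e-06 by edgeR), by 1.14 in library 1 and 1.33 in library 2. The heavy chains H2-D1 (0.49 ± 0.10, edgeR adjusted p = 0.00147) and H2-K1 (0.35 ± 0.08, 0.00279) rose by less. H2-T23 did not pass (0.25 ± 0.20, edgeR adjusted p = 0.406), with 0.64 in library 1 and -0.26 in library 2.

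In the second comparison, Aldh1a1-high against Cyp11b1-high cells, all 4 class I chains were higher and their differences were of like size. H2-K1 rose by 1.00 ± 0.08 on the log2 scale (edgeR adjusted p = 5.68e-08), H2-D1 by 1.09 ± 0.11 (5.38e-07), B2m by 1.30 ± 0.13 (7.00e-07) and H2-T23 by 1.30 ± 0.22 (0.000384). Each was higher in both libraries, the smallest single-library value being 0.92 for H2-K1 in library 1. In all, 6 members were higher, 1 was lower and 20 did not pass, where 8.35% of all genes were higher and 6.77% lower. The median was 0.24, or 0.41 with 3 class II genes at their bound and Cxcl10 left out, against -0.04 for all genes. Both comparisons use the Cyp11b1-high cells, so their values are not independent of each other.

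Cells of other kinds moved with these groups in part. The 8 myeloid markers summed to 3.50 and 12.1 CPM in Aldh1a1-high cells, with 7 and 5 of the 8 at no UMI, against 13.1 and 8.61 in Cyp11b1-high, 1.78 and 7.81 in Cyp11b2-high and 19640 and 14290 in leukocytes. B cell and T or NK cell markers, Csf1r and Ptprc were all at 0 in Aldh1a1-high cells of both libraries. Without the cortical cells that held a UMI of Ptprc or of a myeloid, T, NK or B cell marker, 11 members again passed in the first comparison and 7 in the second, the same genes as before in each. The 3 erythroid markers summed to 1294 and 1212 CPM in Cyp11b1-high cells, against 96.4 and 0 in Cyp11b2-high and 1.75 and 2.41 in Aldh1a1-high cells, with 97.7% and 100% of those UMIs in 5 Cyp11b1-high cells per library. Endothelial markers summed to 19.0 and 11.6, 6.54 and 1.56, and 3.50 and 2.41 CPM. Without cells holding an erythroid or endothelial marker, the 11 calls remained in the first comparison, with Ifit1 added, and the second lost Tap2 alone of its 7.

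The number of calls fell in both comparisons without the library term and after thinning. Without the library term, 2 members passed in the first (Irf7 and Irf9) and 3 in the second (H2-D1, H2-K1 and H2-T23). Thinned to 5000 UMIs, 4 passed in each: H2-D1, B2m, Ifitm3 and Cd74 in the first, and H2-D1, H2-K1, H2-T23 and B2m in the second. Thinning also dropped shallower cells, so that 75 and 62 Cyp11b2-high cells remained of 81 and 88, and the part of each change in the lost calls was not tested. The calls lost kept their direction. In the first comparison the log2 differences after thinning were 0.30 for H2-K1, 1.59 for Tap1, 1.33 for Psmb9, 0.52 for Irf1 and 1.68 for Irf9, with Irf7, Isg15 and Ifit3 on too few UMIs for a fold. In the second they were 0.59 for Tap2, 2.12 for Irf7 and -0.26 for Ifi27.

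Of the peptide loading genes, Tap1 passed in the first comparison, Tap2 in the second and Tapbp in neither. Tap1, a subunit of the peptide transporter, stood at 1.78 and 10.2 CPM in Cyp11b2-high, 10.4 and 15.6 in Cyp11b1-high and 22.8 and 21.7 in Aldh1a1-high cells. The Cyp11b2-high value of library 1 rests on 3 UMIs. Tap1 was higher in Cyp11b1-high than in Cyp11b2-high cells (1.16 ± 0.39, edgeR adjusted p = 0.0359), by 2.37 in library 1 and 0.55 in library 2, and not past the threshold in Aldh1a1-high against Cyp11b1-high cells (0.89 ± 0.40, 0.152).

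Tap2, the partner subunit, was 25 and 35.2 CPM, 36.2 and 41.4, and 56.0 and 67.5 in the same 3 groups. It was higher in Aldh1a1-high cells (0.72 ± 0.21, edgeR adjusted p = 0.0254) and not past the threshold in the first comparison (0.32 ± 0.17, 0.186). Tapbp varied little, at 60.1 and 62.5, 60.1 and 69.6, and 73.5 and 72.3 CPM, with differences of 0.01 ± 0.12 in the first comparison and 0.24 ± 0.18 in the second.

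Of the immunoproteasome subunits, Psmb9 passed in the first comparison and Psmb8 in neither. Psmb9 was 10.7 and 3.13 CPM in Cyp11b2-high, 26.3 and 23.7 in Cyp11b1-high and 42.0 and 33.8 in Aldh1a1-high cells. The groups did not overlap, and Psmb9 was higher by 1.70 ± 0.31 in the first comparison (edgeR adjusted p = 0.000438), with 4 UMIs behind the lowest value. Its further difference in Aldh1a1-high cells was 0.66 ± 0.30 (0.165). Psmb8 was 66.0 and 42.2, 62.5 and 45.1, and 75.3 and 43.4 CPM in the same groups, which overlapped, and its differences were -0.08 ± 0.15 and 0.21 ± 0.21.

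Among the regulators, Irf1, Irf7 and Irf9 were higher in Cyp11b1-high than in Cyp11b2-high cells. Irf9, the DNA-binding part of the complex with STAT2, was 11.3 and 13.3 CPM in Cyp11b2-high and 24.7 and 26.1 in Cyp11b1-high cells, with no overlap and a difference of 1.00 ± 0.23 (edgeR adjusted p = 0.00268). Irf1 was 10.1 and 3.13 CPM in Cyp11b2-high and 18.6 and 17.2 in Cyp11b1-high cells (1.29 ± 0.34, 0.00823), but 21.0 and 7.23 in Aldh1a1-high cells, where the libraries lay on either side of the Cyp11b1-high values and the difference was -0.20 ± 0.43. Irf9 did not differ past the threshold between those groups either (-0.19 ± 0.30).

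Irf7, a regulator that is itself induced by interferon, was the one factor with its highest cortical level in Aldh1a1-high cells in both libraries. It had no UMI in the 81 Cyp11b2-high cells of library 1 and 2 in the 88 of library 2, or 0 and 1.56 CPM, against 5.15 and 7.68 in Cyp11b1-high and 17.5 and 21.7 in Aldh1a1-high cells. The 3 groups did not overlap, although 10 and 9 UMIs carry the highest values. The first comparison passed (edgeR adjusted p = 0.00511), with too few UMIs for a fold, and so did the second, at 1.70 ± 0.46 (0.0151). Thinned, Irf7 was in 21.4% and 11.5% of Aldh1a1-high, 2.87% and 4.58% of Cyp11b1-high and no Cyp11b2-high cells. It was in 25.7% and 23.3%, 6.78% and 8.63%, and 0% and 2.27% before thinning.

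Stat2 did not pass in either comparison, at 16.1 and 14.1, 15.6 and 27.9, and 19.3 and 12.1 CPM in the 3 groups. Nlrc5, the class I activator, was near the detection limit in the cortex: 19 and 10 UMIs in all cortical cells, of which the Cyp11b2-high cells had none and the Aldh1a1-high cells 0 and 1. A difference in Nlrc5 between cortical groups was not detectable at this depth.

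**Figure D2:**
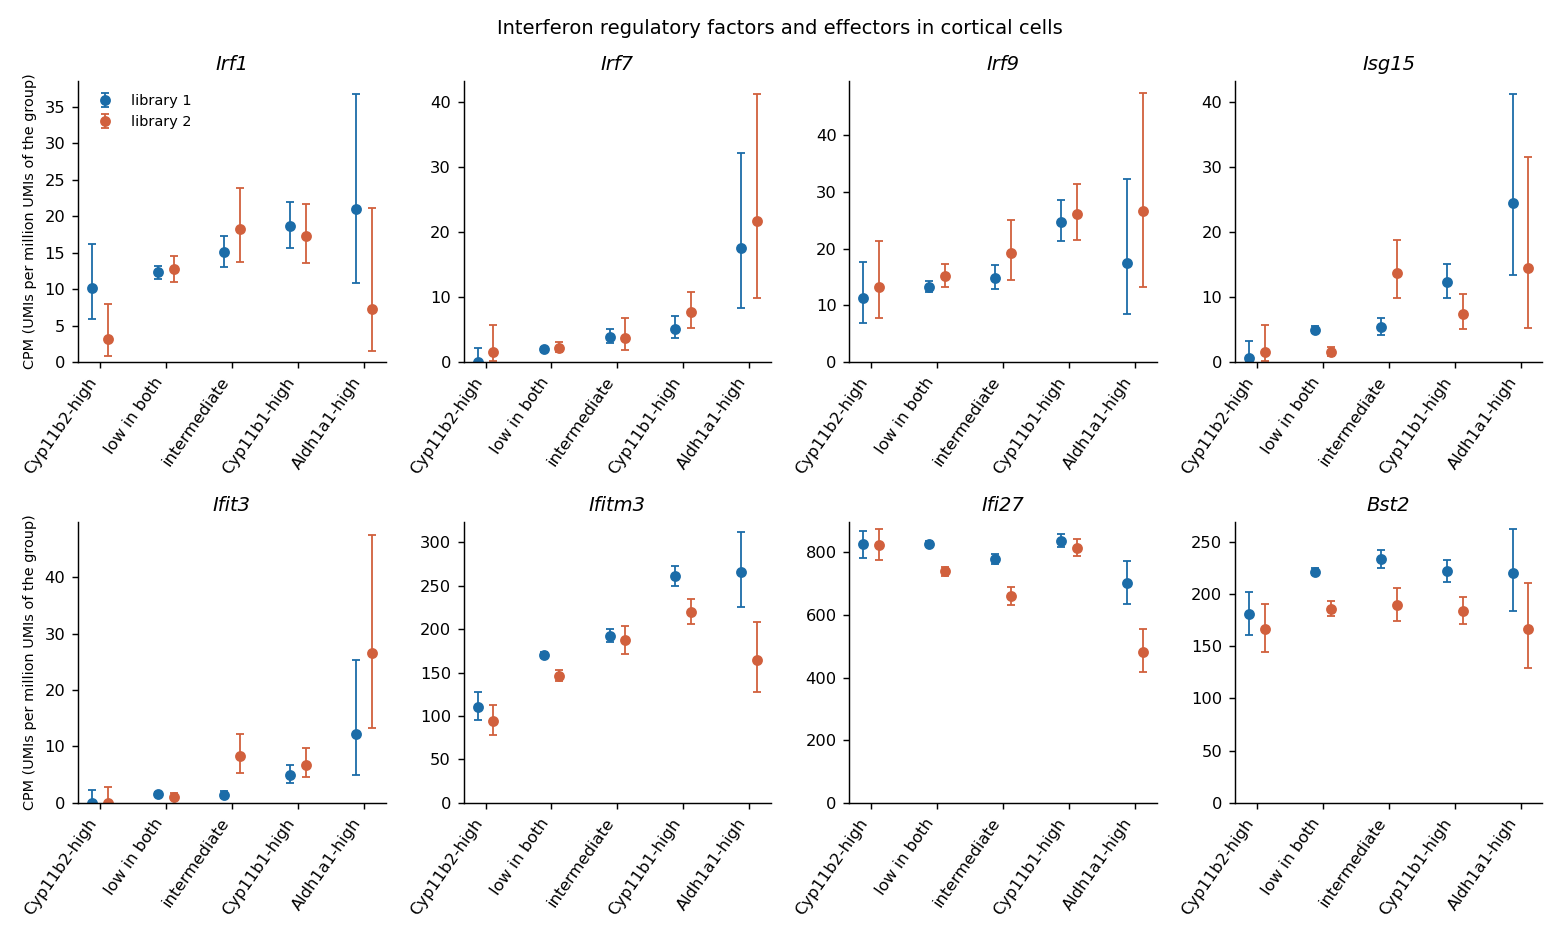
CPM of 3 regulators and 5 effectors in 5 cortical groups, 1 point per library, linear axes from 0, with exact Poisson 95% intervals for counting error. Irf7, Isg15 and Ifit3 reach their highest levels in Aldh1a1-high cells in both libraries, on few UMIs, while Ifi27 is lowest there.

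The effectors fell into abundant and scarce genes. Ifitm3, which blocks viral entry, was 111 and 93.8 CPM in Cyp11b2-high, 169.9 and 147 in cells low in both, 193 and 187 in intermediate, 261 and 220.1 in Cyp11b1-high and 266 and 164 in Aldh1a1-high cells. It rose from Cyp11b2-high to Cyp11b1-high cells by 1.17 ± 0.10 (edgeR adjusted p = 2.49e-08), by 1.18 and 1.17 in the single libraries, the smallest p of the 27 members. It did not pass in Aldh1a1-high against Cyp11b1-high cells (-0.09 ± 0.12, 0.694). Its 3′ end shares 12.3% of stretches with other genes, Gm7676 sharing the most.

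Ifi27, Bst2 and Ly6e were abundant effectors, and of them Ifi27 passed in the second comparison. Ifi27, a mitochondrial protein gene named for its induction by interferon alpha, was detected in 99.1% and 96.2% of cortical cells against 40.0% and 43.1% of leukocytes. Its level was 825 and 823.5 CPM in Cyp11b2-high, 838 and 815 in Cyp11b1-high and 700.4 and 482 in Aldh1a1-high cells. It was the only member that passed as lower in Aldh1a1-high against Cyp11b1-high cells (-0.42 ± 0.11, edgeR adjusted p = 0.0133), by -0.26 in library 1 and -0.64 in library 2. Bst2 (tetherin, which holds budding virus at the membrane) was 181 and 166, 222 and 184, and 221 and 166 CPM in the same groups, and Ly6e was 666 and 993, 737 and 876, and 644 and 639. Neither passed, with differences of 0.17 ± 0.09 and -0.01 ± 0.12 for Bst2 and of -0.08 ± 0.10 and -0.26 ± 0.11 for Ly6e.

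Isg15, a ubiquitin-like protein joined to other proteins, and the Ifit genes, whose products bind viral RNA, were scarce. Isg15 had 1 and 2 UMIs in Cyp11b2-high cells (0.595 and 1.56 CPM), against 12.3 and 7.45 CPM in Cyp11b1-high and 24.5 and 14.5 in Aldh1a1-high cells. Ifit3 had no UMI in the 169 Cyp11b2-high cells, against 4.89 and 6.75 CPM in Cyp11b1-high and 12.3 and 26.5 in Aldh1a1-high cells. In Cyp11b1-high cells Ifit3 was at least 5.49-fold higher (66 UMIs, against a floor of 3 UMIs over the Cyp11b2-high group).

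The test passed for Isg15 (edgeR adjusted p = 0.0258) and Ifit3 (0.0136) in the first comparison, and not in the second (1.03 ± 0.69, 0.371, and 1.74 ± 0.67, 0.0940). Ifit1 was 0.595 and 0, 4.62 and 3.03, and 17.5 and 4.82 CPM, with 1 UMI in Cyp11b2-high cells, and passed in neither. Single cells carried much of the Aldh1a1-high levels: 1 cell held 8 of the 10 Ifit1 UMIs of library 1, and in library 2 1 cell held 4 of the 6 Isg15 UMIs and 1 held 5 of the 11 Ifit3 UMIs. Ifit2, Rsad2 (viperin) and Oasl2 had at most 6 UMIs in the Cyp11b2-high or Aldh1a1-high cells of either library and gave no call. Near the 3′ end of Ifit3, 19.1% of stretches are shared with other genes, Ifit3b sharing the most.

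**Figure D3:**
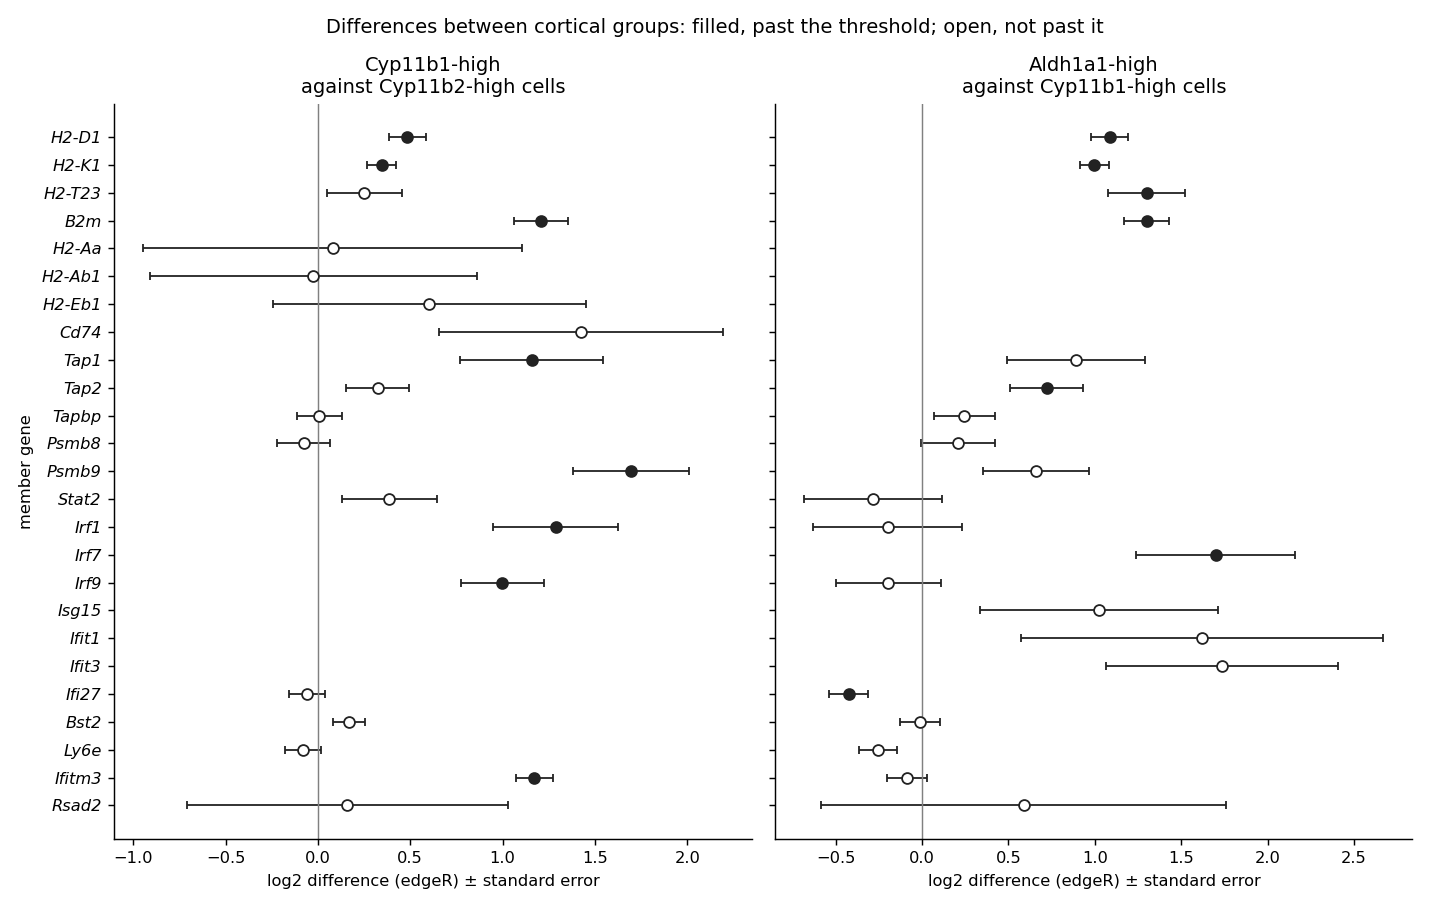
Log2 difference ± SE from edgeR for members in Cyp11b1-high against Cyp11b2-high cells and in Aldh1a1-high against Cyp11b1-high cells, filled where the adjusted p is under 0.05; members with 3 or fewer UMIs in a group are left out of the panel concerned. The class I chains H2-D1, H2-K1 and B2m are filled in both panels. Tap1, Psmb9, Irf1, Irf9 and Ifitm3 are filled in the first panel and not in the second.

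A minority of cells in each group held a UMI of the scarce effectors, and few cortical cells held several of them. For Isg15, Ifit1, Ifit2, Ifit3, Rsad2, Oasl2, Irf7 and Cxcl10, a set chosen after their values were seen, a UMI of at least 1 gene was found in 8.64% and 7.95% of Cyp11b2-high, 17.0% and 12.6% of cells low in both, 22.5% and 16.7% of intermediate and 26.9% and 20.5% of Cyp11b1-high cells. Aldh1a1-high cells reached 48.6% (exact 95% interval 31.4 to 66.0) and 40.0% (22.7 to 59.4). Their median depths, 16048 and 14376 UMIs, were close to those of Cyp11b1-high cells (16358.5 and 13780.5) and below those of Cyp11b2-high cells (21680 and 18091). The share in leukocytes was 36.0% and 38.5%, at lower depth. UMIs of at least 3 of the 8 genes were found in 33 of 4204 and 9 of 1710 cortical cells.

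At least 4 of the 8 genes were found in 18 of 4204 and 2 of 1710 cortical cells. The cells with most UMIs of the genes other than Cxcl10 were 1 in each library. One intermediate cell of library 2, with 11215 UMIs, held 40 of Ifit1, 27 of Isg15, 21 of Rsad2, 20 of Ifit3, 18 of Ifit2, 7 of Oasl2, 4 of Irf7 and 179 of Cxcl10. A cell low in both in library 1, with 9506 UMIs, held 15 of Ifit3, 12 of Rsad2, 11 of Ifit1, 10 of Isg15, 7 of Oasl2 and 3 of Irf7, with none of Cxcl10. A Cyp11b1-high cell of library 2 held as many of the genes as the second, 6 of 8, on fewer UMIs (4 of Isg15, 3 each of Ifit1 and Oasl2, and 1 each of Ifit3, Rsad2 and Irf7). None of these cells held a leukocyte marker. The intermediate cell carried 40 of the 44 Ifit1 UMIs and 18 of the 18 Ifit2 UMIs of intermediate cells in library 2, so the levels of these genes in that group describe 1 cell.

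Cxcl10, a chemokine that draws T cells, was still more concentrated. Its UMIs were in 10 and 4 cortical cells, and 3 cells in each library with at least 10 UMIs held 118 of 139 and 302 of 304. The level of 71.5 CPM in intermediate cells of library 2, against 1.24 in library 1, came from such cells. Apart from the intermediate cell described above, the 3 cells with most Cxcl10 in the study (410, 94 and 89 UMIs) had no UMI of the other 7 effectors and low mitochondrial shares, 0.392%, 0.0157% and 0.263% of UMIs. The first of these lay under the Star limit. A comparison of groups for Cxcl10 would rest on these few cells.

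Class II was nearly absent from the cortex. Cortical cells held 1878 and 166 UMIs of H2-Aa, H2-Ab1, H2-Eb1 and Cd74 together, and 4.07% and 2.34% of cells had any. Those UMIs were uneven: 13 and 2 cells with at least 20 each held 84.2% and 38.6% of them, and 11 and 2 of these cells also held a leukocyte marker, 5 and 1 Ptprc. Doublet or ambient origin of these UMIs was not tested. Cd74, the invariant chain, had 3.08 and 2.81 UMIs per UMI of H2-Aa in cortical cells, against 2.96 and 3.01 in leukocytes.

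The Aldh1a1-high cells, with the highest class I, had 1 UMI of Cd74 in library 1 and none of the other class II genes in either library. The floor of 3 UMIs over the group allows up to 3.04 CPM. The Cyp11b1-high levels were 1.19-fold that floor for H2-Aa, 1.11-fold for H2-Ab1 and 1.52-fold for H2-Eb1. In each library, 5 Cyp11b1-high cells held 80.65% to 100% of the UMIs of each gene. None passed the test, so a lower level in Aldh1a1-high cells was not shown. Without the low-count filter H2-Eb1 and Cd74 passed as lower. Cd74 also passed as lower when cortical cells holding Ptprc were left out. In Cyp11b2-high cells class II was at 0 to 0.595 CPM in library 1 and 5.47 to 12.5 CPM in library 2, where 1 cell with Ptprc held 29 of 40 UMIs.

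**Figure D4:**
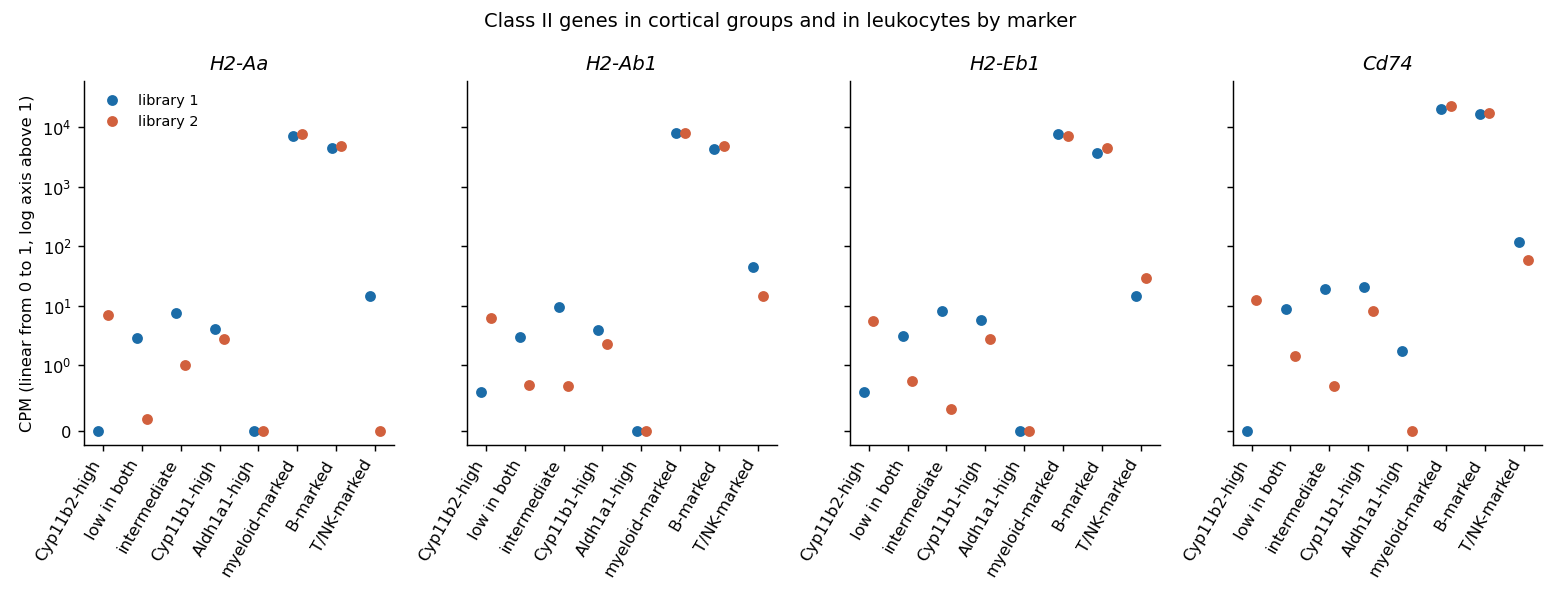
CPM of the 4 class II genes in 5 cortical groups and in leukocytes by marker, 1 point per library, on an axis that is linear from 0 to 1 and logarithmic above. Myeloid-marked and B-marked leukocytes lie above 1000 CPM for each gene in both libraries, T/NK-marked leukocytes far lower, and Aldh1a1-high cells at 0 except for Cd74 in library 1.

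Leukocytes served as the reference for these levels. In leukocytes against all cortical cells, 26 of 29 members were higher, 1 (Ifi27) was lower and Ly6e and Cxcl10 did not pass (edgeR adjusted p = 0.0701 and 0.198), where 46.6% of all 12769 genes tested passed, 19.8% higher and 26.8% lower. The members' median log2 difference was 3.35, against -0.32 for all genes. This fit has 4 sums and 1 residual degree of freedom, so the spread of each gene was taken from the other genes and its SE does not show how far that gene varied between libraries.

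The class II genes differed most, by 11.05 ± 0.24 (H2-Eb1) to 11.34 ± 0.23 (Cd74) on the log2 scale. Cd74 stood at 14790 and 14170 CPM in leukocytes against 11.3 and 3.08 in cortical cells. Within leukocytes it was 20510 and 22720 CPM in myeloid-marked, 16980 and 17660 in B-marked and 119 and 59.6 in T/NK-marked cells, so the T/NK-marked cells were far below the others in both libraries. Cd74 was detected in 61.3% and 56.9% of leukocytes and in 1.97% and 1.23% of cortical cells, at the depths given above, and in 71.8% and 65.4% against 0.891% and 0.611% after thinning.

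Class I was higher in leukocytes by 3.05 ± 0.17 (H2-K1) to 4.39 ± 0.18 (H2-D1), and T/NK-marked cells led for H2-K1, at 2192 and 3082 CPM against 1166 and 1462 in myeloid-marked cells. Psmb8 (3.51 ± 0.12) and Psmb9 (3.73 ± 0.23) were higher to a like degree, Tapbp (1.87 ± 0.17) and Tap2 (1.95 ± 0.26) less. Irf7 was higher by 4.57 ± 0.48 and Irf1 by 3.35 ± 0.28. Ifitm3 was higher by 3.07 ± 0.18, with myeloid-marked cells at 2493 and 1956 CPM and no UMI in the 25 T/NK-marked or 30 B-marked cells.

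Some members did not follow that order. Ifi27 was 106 and 113 CPM in leukocytes against 819.5 and 743 in cortical cells, a difference of -2.64 ± 0.21. Ly6e was 925 and 829 CPM against 693 and 908, with the libraries on opposite sides in unscaled CPM. With the scaling of the fit, its single-library log2 differences were 0.64 and 0.05. It passed as higher in leukocytes with RLE size factors. Isg15 in leukocytes, 36.7 and 6.43 CPM, overlapped with Aldh1a1-high cortical cells, and Ifit3, 11.5 and 16.1 CPM, lay within the 12.3 and 26.5 CPM of those cells or just below it.

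The other genes of the pathway were 70 listed and 68 with a feature. In Cyp11b1-high against Cyp11b2-high cells 18 of 52 tested were higher and 2 lower, with a median of 0.40, where 10.7% of all genes were higher and 12.7% lower, with a median of 0.02. Dhx58, which encodes the RNA-sensing protein LGP2, stood at 7.14 and 7.03 CPM in Cyp11b2-high and 27.3 and 33.3 in Cyp11b1-high cells (2.00 ± 0.29, edgeR adjusted p = 3.02e-05). Also higher were Psmb10, the third immunoproteasome subunit (0.71 ± 0.19), Irgm1, an interferon-induced GTPase (0.69 ± 0.22), and Lgmn, a lysosomal protease (0.66 ± 0.18). The brake on cytokine signalling Socs1 was lower, at 20.6 and 12.3 CPM in Cyp11b1-high against 52.9 and 56.3 in Cyp11b2-high cells (-1.73 ± 0.19, 1.27e-06), as was the repressor Irf2 (-0.43 ± 0.13).

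In Aldh1a1-high against Cyp11b1-high cells 3 of 52 were higher and 3 lower, with a median of 0.09, against -0.04 for all genes. Of all genes 8.35% were higher and 6.77% lower, so these counts lay near the background, and the values that follow describe single genes. Among those higher, Lgmn rose again (1.55 ± 0.17), from 38.3 and 49.1 to 92.8 and 159 CPM, with the lipid-presenting molecule Cd1d1 (1.28 ± 0.36). Ifitm2, a close relative of Ifitm3, was lower, at 879 and 549.8 against 1532 and 1298 CPM (-0.94 ± 0.11), and so were the proteasome activator subunits Psme2 (-0.56 ± 0.15) and Psme1 (-0.52 ± 0.12).

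Against all cortical cells, leukocytes had 49 of 66 other pathway genes higher and 2 lower, where 19.8% of all genes were higher and 26.8% lower. Ciita, the class II activator, stood at 110 and 116 CPM in leukocytes, with 4 UMIs in the cortical cells of library 1 and none in those of library 2. Ctss, the protease that trims the invariant chain, was at 2118 and 1816 CPM against 1.18 and 1.62, H2-DMb1, a chain of the class II peptide exchanger, at 443 and 511 against 0.332 and 0.568, and Irf5 at 174 and 145 against 0.111 and 0.203. Trim25, which acts with the RNA sensor RIG-I (-1.22 ± 0.26), and Ifitm2 (-0.95 ± 0.17) were lower in leukocytes.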

How the data were processed

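UMI counts per gene and cell barcode were deposited by the authors, made with Cell Ranger on build mm10 per the submitters' processing notes, with software version 3.1.0 per the file headers. The library kit was version 3.1 per the labels. The sources used here do not say how barcodes were called as cells.

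Barcodes under 1000 UMIs or 500 genes, or over 30% mitochondrial UMIs, were left out (148 and 276). Scrublet in scanpy 1.11.5 scored doublets, and 0.8% per 1000 barcodes were removed (203 and 42). Free RNA was not subtracted. UMIs were summed over the groups with at least 20 cells per library (5 cortical groups, 10 sums) and fitted in edgeR 4.0.16 (R 4.3.3, TMM, low-count filter) with group and library terms. The cortical fit had 4 residual and 15.6 prior degrees of freedom. Both groups of a comparison come from the same library, so the library term pairs them. In the cortical fit, the spread behind the p-values pools how 5 groups varied between 2 libraries and borrows from other genes. It is thus not the spread of 1 difference alone. Nothing states that the libraries held separate animals, so that spread may be technical. Star, Cyp11b2, Cyp11b1, Aldh1a1 and Ptprc defined groups and were not tested. The fitting code was also run on simulated sums with known changes, drawn at a fixed spread and without a library effect. That run checked the code, not the p-values of these data.

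Shares have exact Clopper-Pearson and counts exact Poisson 95% intervals, which cover counting error only, as does the floor of 3 UMIs. All 29 members are named. Of the other pathway genes, those named passed the test with at least 20 CPM on the higher side in both libraries, up to 4 per direction by size of difference. One such gene is counted but not reported by name here. The members, lists and groups were chosen with earlier results of these data known. Alternatives were DESeq2 1.42.0, RLE size factors, a fit without the library term or without the low-count filter, limits of 15% mitochondrial UMIs and of 1500 genes, cells called doublets put back, thinned cells, other limits for each group, cells without Ptprc and single libraries. Leaving out cortical cells with leukocyte markers, or with erythroid or endothelial markers, was chosen after seeing the data. Positions come from GENCODE vM21 and promoters from RefSeq, both GRCm38. Promoter motifs were first searched in longer forms of the interferon-stimulated response element and the NF-kB element and then shortened to the letters given, a choice made after the matches were seen. The longer forms were in fewer of all promoters, in the same 9 members for the response element, and in H2-K1 and H2-D1 but not Irf1 for the NF-kB element.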

Additional observations from a re-analysis of the deposited data

Results flagged for a closer look

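Cells under the Star limit in which no Ptprc was detected (410 in library 1 and 195 in library 2) entered no comparison, yet held some members. Cd74 stood there at 106 CPM in library 1 and 233 CPM in library 2, with 98.5% and 99.4% of the class II UMIs in 9 and 6 cells that each held at least 20, of which 8 and 6 carried a leukocyte marker. The median depth of those cells was 3034 and 2635 UMIs. Cxcl10 stood at 5.43 CPM in library 1 and 197 CPM in library 2, where 1 cell held 410 of its UMIs.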

How the results depend on the processing

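Main counts were 11, 7 and 27 members past the threshold in the 3 comparisons, in the order of the text. Without the replicate block (the library term) they were 2, 3 and 27, and the counts over all genes went from 2653 to 589 and from 1715 to 522. Thinned to 5000 UMIs, with shallower cells dropped, they were 4, 4 and 24, with 989, 654 and 3646 genes in all. The other alternatives gave 11 to 16, 6 to 10 and 26 to 28. The upper ends came from halved group limits, no low-count filter and RLE size factors. H2-Ab1 in Cyp11b1-high against Cyp11b2-high cells went from -0.02 to 2.59 with halved limits; the cause was not tested. Over all alternatives, 0 of 11, 3 of 7 (H2-D1, H2-K1 and H2-T23) and 24 of 27 calls were kept. Lost in the third were Ifit1 and Ifit3 (thinned) and Rsad2 (thinned, and with at least 1500 genes). Leaving out 1 library left no residual degrees of freedom, so only single-library values are given. Doubled group limits and an Aldh1a1 limit of 2000 CPM could not be fitted, with under 20 cells per library in a group. Aldh1a1-high cells, 35 and 30, limit the depth for scarce genes.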
